A study of Mus musculus with 2 samples.

Results

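Mir21a and Mir22 are the genes of miR-21 and miR-22, small RNAs linked to cell growth and to tissue stress. They were picked by name: the 2 rows whose Ensembl identifier belongs to either gene in mouse GENCODE, out of 1973 miRNA gene rows in each library. The samples were intestine of 2 newborn mice of strain B6NCrl at postnatal day 0, called pup 2 and pup 1, littermates from 1 pregnant female, with no treatment named. Each animal gave 1 library of RNA below 30 nucleotides, and the labels give neither a gut segment nor a sex. There is 1 group, so the values give the levels of both miRNAs in newborn gut and how far the littermates differed.

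A miRNA is cut from a hairpin in a longer transcript by the enzymes Drosha and Dicer, and one arm of the hairpin is loaded into an Argonaute protein. The loaded arm finds messenger RNAs mainly through its seed, the bases near its 5′ end, and lowers their output. miR-21 represses Pdcd4 and Sprouty genes, its transcription is driven by growth and inflammatory signals through AP-1 and STAT3, and it is raised in colorectal tumours and inflamed gut. miR-22 represses Sirt1 and Hdac4, and is best known from the stress response of mouse heart muscle.

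The mature arms are shown with the seed, bases 2 to 8, in capitals, because the seed decides which other miRNAs share targets with them. The sequences are from RefSeq, on GRCm38.p6, written 5′ to 3′, and both genes matched by symbol.
miR-21a-5p: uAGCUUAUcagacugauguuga
miR-21a-3p: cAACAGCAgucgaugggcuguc
miR-22-5p: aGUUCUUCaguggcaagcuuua
miR-22-3p: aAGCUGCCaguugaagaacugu
All 4 arms are 22 bases long. The 5p arm of miR-21 and the 3p arm of miR-22 are known as the abundant arms. Counts were given per gene, so the reads of the arms could not be told apart here.

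No 2 of the 4 arms share a seed. Among 1679 mature mouse miRNAs in the RefSeq table, 1 other has the seed of miR-21a-5p, namely miR-21c, and 0 have the seed of miR-21a-3p, miR-22-5p or miR-22-3p. The mouse genome annotation holds 2 further genes with miR-21 names, and their mature sequences are shown for comparison with miR-21a-5p.
miR-21b: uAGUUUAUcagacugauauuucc
miR-21c: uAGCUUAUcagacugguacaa
Positions are counted from 1 at the 5′ end, with the base of miR-21a-5p first. miR-21b differs by C4U in the seed and by G18A, G21U and A22C, and is 23 bases long. miR-21c keeps the seed and differs by A16G, G18A, U19C, U20A and G21A, and is 21 bases long.

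These differences bear on the counts, since a read with more than 1 place in the genome entered no gene's count. The longest run of bases that the Mir21a hairpin shares with any of 1004 other mouse hairpins, on either strand, was 15, with Mir21c, and the next was 13, with Mir21b. For Mir22 the longest was 13, with Mir6998. Both runs are shorter than a 22-base arm. Among 141767 GENCODE M21 transcripts, the exact arms of miR-21a occurred in transcripts of Mir21a and its host Vmp1, and the exact arms of miR-22 in those of Mir22, Mir22hg and Tlcd2, which overlap it. Copies in unannotated sequence were not searched.

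Both genes lie on mouse chromosome 11, with 11120256 bases between them, on opposite strands. On GRCm38, Mir21a (ENSMUSG00000065455) spans chr11:86584067-86584158 on the minus strand. Its 92-base hairpin sits inside the last exon of Vmp1, a gene of autophagy and of the endoplasmic reticulum, in the 3′ untranslated region and 202 bases before the annotated end of the gene. That exon belongs to 1 of 8 annotated Vmp1 transcripts. Mir22 (ENSMUSG00000065529) spans chr11:75463716-75463810 on the plus strand. Its 95-base hairpin sits inside an exon of both annotated transcripts of the noncoding host gene Mir22hg, and of 1 noncoding transcript of the overlapping gene Tlcd2. Thus both hairpins are exonic, and neither Vmp1 nor Mir22hg holds a further annotated miRNA gene. In RNAfold's predicted structures, the minimum free energy was -46.2 kcal/mol for Mir21a and -41.9 kcal/mol for Mir22. Of the arm bases, 19 of 22 were paired in miR-21a-5p and 21 of 22 in each of the others. Per base, 52 of the 276 hairpins folded for detected genes had a lower energy than Mir21a, and 125 had a lower energy than Mir22.

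Sequencing gave 8373497 reads for pup 2 and 6375694 for pup 1. Of these, miRNA genes took 4683939 on their own strand in pup 2 and 3567658 in pup 1. Levels are CPM, the counts of a gene per 1000000 such counts, and ± is the SD over the 2 pups. Multi-mapped reads made up 30.0% ± 0.382 of the total. They entered no gene's count, so all levels, shares and ranks refer to uniquely mapped reads. Genes whose mature sequence is shared between copies may therefore stand too low beside Mir21a and Mir22. Detection was set at 10 or more counts in both libraries, and 314 genes reached it. The tissue label was set beside listed marker genes, chosen with earlier results of these data known. All 9 epithelial genes were detected, led by Mir215 and Mir429, while of 8 markers of liver, heart and brain with a row only Mir208b (heart) and Mir122 (liver) were detected, at 111 ± 8.71 and 20.6 ± 11.7 CPM. The brain genes Mir9-2, Mir124a-1, Mir124a-2 and Mir124a-3 had 0 counts in both pups. Their mature sequences are shared between gene copies, whose reads map to several places and were not counted, so this does not show absence.

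For Mir21a the count was 169218 in pup 2 and 118706 in pup 1, equal to 36127 and 33273 CPM. It took 3.61% of miRNA counts in pup 2 (95% exact Clopper-Pearson interval 3.60 to 3.63) and 3.33% in pup 1 (3.31 to 3.35). Mir22 had 95141 counts in pup 2 and 69101 in pup 1, or 20312 and 19369 CPM. Its share was 2.03% in pup 2 (interval 2.02 to 2.04) and 1.94% in pup 1 (1.92 to 1.95). Both miRNAs were thus abundant and somewhat higher in pup 2, and their ranges did not overlap: the lower Mir21a value lay above the higher Mir22 value. These intervals cover counting error only. As far as the sources used here say, the reads carry no molecular identifiers. Amplified copies of 1 molecule then count as separate reads, so the intervals may be too narrow even for that error. The mean was 34700 ± 2018 CPM for Mir21a and 19840 ± 667 CPM for Mir22 (n = 2), coefficients of variation of 5.82% and 3.36%. The median detected gene stood at 145 CPM, so Mir21a was 239 times and Mir22 137 times that level. Together they took 5.64% of miRNA counts in pup 2 and 5.26% in pup 1.

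Every counted read of both genes was on the annotated strand. The opposite strand of Mir21a and of Mir22 held 0 counts in either pup. A count of 0 allows up to 3 counts, or 0.640 CPM in pup 2 and 0.841 CPM in pup 1. Over all miRNA genes the opposite strand held 3.33% of counts in pup 2 and 3.42% in pup 1, but few genes carried them. Of 314 detected genes 290 had 0 opposite-strand counts in both pups, as had 17 of the 25 highest. Zero opposite-strand counts were therefore the common case and set neither gene apart.

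In the order of all genes by uniquely mapped counts, Mir21a ranked 5 in pup 2 and 6 in pup 1. The 3 genes next above it by mean were the endothelial Mir126a (52213 ± 3424 CPM), the let-7 gene Mirlet7g (42069 ± 1174) and the epithelial Mir429 (35301 ± 173). Next below were the epithelial Mir192 (28894 ± 94.0) and Mir200b (27514 ± 2056), then Mir26b (27147 ± 1054). Of these 6, Mir429 alone had a range over the pups that overlapped Mir21a's: Mir21a led in pup 2 and Mir429 in pup 1. The place of Mir21a was thus set apart from 5 of its 6 neighbours by more than the spread between the pups, and not from Mir429.

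Mir22 ranked 14 in pup 2 and 15 in pup 1. Above it stood Mir99a (22374 ± 1063 CPM), the epithelial Mir200c (22264 ± 1563) and Mir194-1 (22021 ± 3749). Below it stood the Hox cluster gene Mir10a (18882 ± 1385), Mir335 (15108 ± 211), which lies in the imprinted gene Mest, and Mir23b (14334 ± 704). The ranges of Mir194-1 and Mir10a overlapped that of Mir22, and those of the other 4 did not. In pup 1 these 3 genes were nearly level, with Mir10a at 19861, Mir194-1 at 19369.3 and Mir22 at 19368.7 CPM. Ligation and amplification favour some small RNAs over others, so an order between miRNAs carries an error that the pups share and their SD leaves out.

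**Figure D1:**
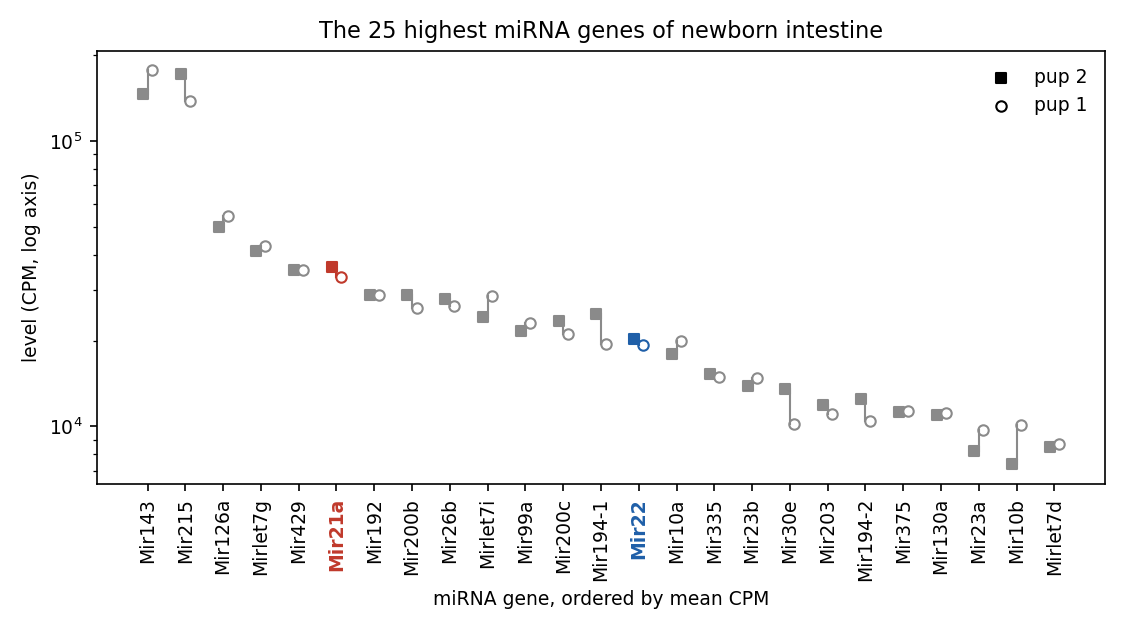
Level in CPM on a log axis of the 25 highest miRNA genes, ordered by mean, with filled squares for pup 2, open circles for pup 1 and a line joining them. Mir21a (red) stood at 36127 and 33273 CPM and Mir22 (blue) at 20312 and 19369 CPM. Each had a shorter line than Mir194-1 and a longer one than Mir192 and Mir335.

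Within a library, where depth and scaling cancel, Mir21a exceeded Mir22 by 1.78-fold in pup 2 (95% exact binomial interval 1.76 to 1.79) and 1.72-fold in pup 1 (1.70 to 1.73). On the log2 scale the difference in level was 0.83 in pup 2 and 0.78 in pup 1, with a mean of 0.81 ± 0.04. The excess of Mir21a in counts was thus far larger than its spread between the littermates, and it had the same direction in 2 of 2 pups. Neither the intervals nor the SD cover the bias of ligation and amplification between miRNAs, which the pups share. With 2 pups no exact test over animals can pass 0.05, so no p is given. Both mature miRNAs have the same length and a read covers 1 molecule, so counts were not divided by length. Per base of the annotated hairpin the difference was 0.85 ± 0.03.

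Between the littermates, both miRNAs were a little higher in pup 2. With TMM scaling, which sets the libraries level over most genes, Mir21a was 1.12-fold higher in pup 2 (95% exact binomial interval 1.11 to 1.13), a log2 ratio of 0.16. Mir22 was 1.08-fold higher (1.07 to 1.09), a log2 ratio of 0.11. Both passed the exact binomial test of the libraries, with adjusted p = 5.81e-192 for Mir21a and 5.49e-53 for Mir22 over 314 genes. That test compares 2 libraries against counting noise and holds no replicate of either animal. Of the 314 genes 41.1% were called, 21.3% as higher and 19.7% as lower in pup 2. Among the calls 51.9% were thus higher, against 41.7% with total counts and 64.6% with upper-quartile scaling, and the calls of Mir21a and Mir22 are read against those shares. With total counts as the scaling the log2 ratio of Mir22 was 0.07, still past the test.

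The size of the difference was ordinary. The absolute log2 ratio was smaller than that of Mir21a in 140 of the other genes tested, 44.7%, and smaller than that of Mir22 in 105, 33.5%. The median over all genes tested was 0.18. Among the other 81 genes of at least 1000 CPM, where counting noise is small, 49 moved less than Mir21a and 32 more, and 37 moved less than Mir22 and 44 more. The ratio of Mir21a to Mir22 itself shifted by 0.05 on the log2 scale, pup 2 minus pup 1. Some Hox cluster genes differed far more between the pups. Mir196b had a log2 ratio of -4.91 at a mean of 1061 CPM, and Mir196a-2 of -3.31 at 41.9 CPM. Mir10b (-0.41) and Mir10a (-0.11) were also called lower in pup 2, while Mir615 (-0.04) was not called. The labels give no gut segment, and whether both samples covered the same region was not tested.

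**Figure D2:**
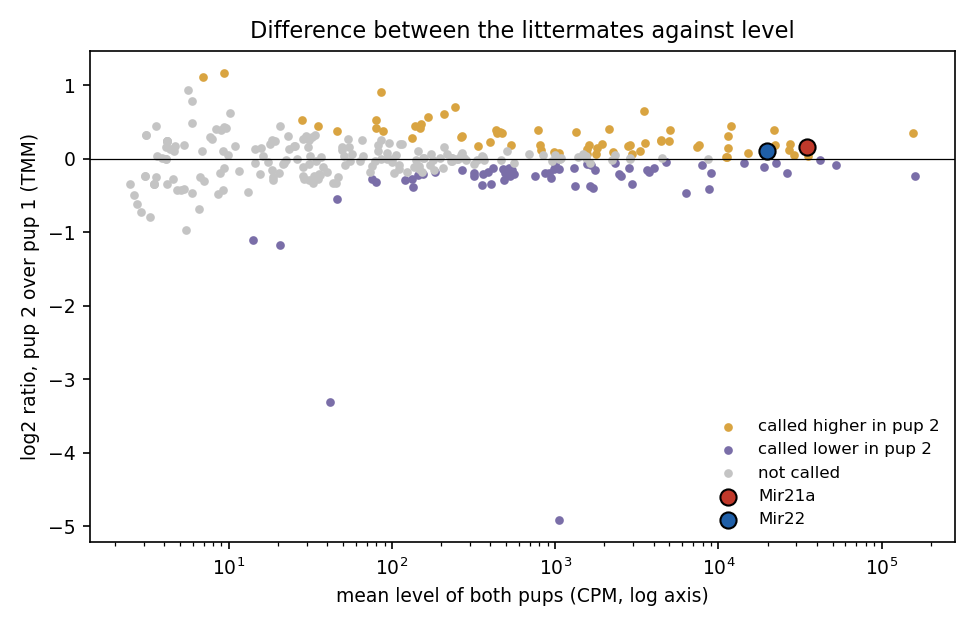
Log2 ratio of pup 2 over pup 1 with TMM scaling against mean level in CPM on a log axis, 1 point for each of 314 detected genes, coloured by the exact binomial call. Mir21a (red) at 0.16 and Mir22 (blue) at 0.11 lie just above the zero line, among genes of similar level.

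Cell-type markers also differed between the pups. In bulk tissue a change in the number of cells of a type and a change in RNA per cell cannot be told apart. The 9 epithelial genes summed to 333027 CPM in pup 2 and 286751 in pup 1, and 9 of 9 were called higher in pup 2, where 21.3% of all genes tested were. With total counts 7 were, while Mir192 did not pass and Mir429 lay just below 0 (-0.01) without passing. The smooth muscle and mesenchyme list, nearly all of it Mir143, summed to 152054 CPM in pup 2 and 183213 in pup 1, with 0 of 5 tested genes called higher and 2, Mir143 and Mir214, lower, beside 21.3% and 19.7% of all genes tested. These calls were 0 and 3 with total counts, and 1 and 2 with upper-quartile scaling. Mir145a, its next highest gene, had 4429 CPM in pup 2 and 4550 in pup 1, a log2 ratio of 0.004 with TMM scaling, and was not called. The median log2 ratio of the 5 tested genes was -0.002, and Mir199a-2 stood at 0.32 without being called. The lower sum in pup 2 was thus not shared by the whole list. Mir126a, the endothelial marker, had 49791 CPM in pup 2 and 54634 in pup 1. The leukocyte list summed to 1366 and 1130 CPM on the annotated strand, led by Mir342 and Mir223, with Mir142b at 0 in both pups. With strand ignored, all 4 leukocyte genes with a row were tested, Mir142b among them. The reads over Mir142b thus lay on the strand opposite to it, so they are not counts of Mir142b as annotated, and the sum leaves them out. Mir142, also on the list, had no row, so its level is not shown. The erythroid list summed to 148 and 101 CPM, led by Mir451a with 110 CPM in pup 2 and 60.3 in pup 1, while Mir144 had 35.7 and 39.8 CPM and was not called. The part of these shifts in the small difference of Mir21a and Mir22 was not tested.

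By likeness of the ratio between the pups, the 3 nearest genes of at least 1000 CPM to Mir21a were Mir31, an epithelial miRNA, Mir423 and Mir744, with log2 ratios of 0.16, 0.15 and 0.17. Those nearest to Mir22 were the cell-cycle gene Mir15a with 0.10, Mir26b with 0.12 and Mir125a with 0.13. This likeness rests on 2 samples and on 81 candidate genes, so it says only that these ratios were close.

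Along chromosome 11 both genes stood alone. The nearest detected miRNA genes to Mir21a were Mir301, 528845 bases away with 536 ± 36.4 CPM, and Mir193a, 6872032 bases away on the other side with 14.4 ± 0.692 CPM. For Mir22 they were Mir132, 289968 bases away with 267 ± 24.8 CPM, and Mir423, 1614253 bases away with 1805 ± 96.4 CPM. The pup difference of the neighbours was mixed: Mir301 and Mir423 were called higher in pup 2, with log2 ratios of 0.18 and 0.15, Mir132 was called lower (-0.15, though not with upper-quartile scaling or at a minimum of 1 count), and Mir193a was not called (-0.06). Of 117 miRNA genes on the chromosome 22 were detected, and Mir21a and Mir22 were the highest and the next highest. They held 67.8% of the chromosome's miRNA counts in pup 2 and 65.0% in pup 1. These counts leave out multi-mapped reads, reads on the opposite strand and genes without a row. Mir10a followed with 18882 ± 1385 CPM, a range that overlapped that of Mir22, and then Mir744 with 2787 ± 178 CPM.

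The other miR-21 genes left almost no reads. Mir21b had 2 counts in pup 2 and 0 in pup 1, and Mir21c, which has the seed of miR-21a-5p, had 0 and 0, which allows the same limit of 0.640 and 0.841 CPM. Of the genes with that seed in the table, Mir21a alone had counts.

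The 7 genes of a list of other stress-induced miRNAs lay far below both. They summed to 964 CPM in pup 2 and 1058 in pup 1, against 56439 and 52642 CPM for Mir21a with Mir22. Stress-linked miRNAs outside this list were not looked at as such. The hypoxia-induced Mir210 led with 406 ± 76.2 CPM, followed by the p53-induced Mir34a (268 ± 4.28) and Mir34c (196 ± 3.50). Mir146 (95.4 ± 8.13 CPM) and Mir155 (36.5 ± 0.300), which inflammatory signals induce through NF-kB, and Mir34b (8.94 ± 1.55) were below them. Mir146b had 1 count in pup 2 and 2 in pup 1; its hairpin shares a run of 21 bases with Mir146, so both may be undercounted. Of 6 genes tested, 0 were called higher and 1, Mir210, lower in pup 2, with 352 CPM in pup 2 and 460 in pup 1 (log2 ratio -0.34). Over all genes tested the shares were 21.3% higher and 19.7% lower, so 1 of 6 is near the background. The median of the 6 was 0.05, and with upper-quartile scaling 1 gene was called higher.

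**Figure D3:**
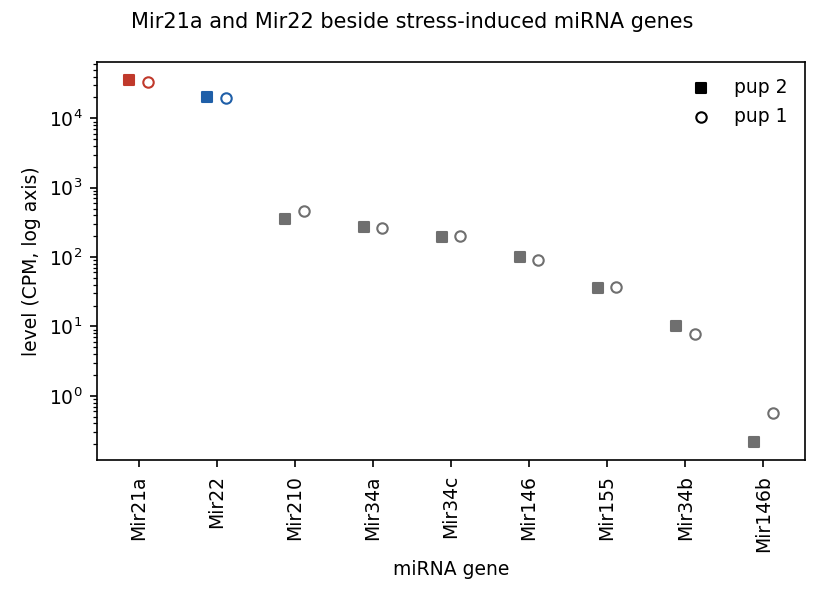
Level in CPM on a log axis of Mir21a (red) and Mir22 (blue) beside 7 stress-induced miRNA genes, with filled squares for pup 2 and open circles for pup 1. The highest of the others, Mir210 at 406 ± 76.2 CPM, lies below Mir22 at 19840 ± 667 CPM.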

How the data were processed

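The deposited files hold raw read counts for each miRNA gene that the authors made on mm10 with GENCODE M4, per the text deposited with them; the aligner and counter are not given in the sources used here. Of 3 count columns, those of the annotated strand were used, read as such from their sums. The 4 totals of reads of no gene stayed out of library sizes and tests. Of 1973 identifiers 1894 had a symbol in GENCODE M21, whose assembly GRCm38 is the one of mm10; the other 79 held 0 counts.

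CPM, shares and exact intervals were computed in Python 3.11.15 with SciPy 1.17.1. The pups were compared by 2-sided exact binomial tests, with the null set by TMM-scaled library sizes (edgeR 4.0.16). Benjamini-Hochberg adjustment was over all 314 genes of at least 10 counts in each library, with a threshold of 0.05. The code was run on simulated counts with counting noise only. Such counts cannot show how the threshold behaves with variation between libraries or animals. P-values measure counting noise between 2 libraries. Hairpins were folded with ViennaRNA 2.7.2. Alternatives were DESeq2 1.42.0 size factors, total counts, upper-quartile scaling, minimums of 1 and 100 counts, ignoring strand, other denominators, counts per hairpin base and each pup alone.

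The genes and lists were chosen with earlier results of these data known. Genes named are both miRNAs, their 3 neighbours on each side by mean CPM and the 3 nearest by pup ratio, the nearest detected genes on the chromosome, those sharing a seed, the miR-21 and stress lists in full, and of each marker list the 2 highest and those at 0. Outside that rule, Mir6998 was named for its shared run of bases and Mir214 for its call, after the values were seen. Mir199a-2, Mir196b, Mir196a-2, Mir10b and Mir615 were named for their pup ratios, also after the values were seen. The listed markers Mir126b, Mir142 and Mir9-1 were not analysed here, and 1 further list is not reported here.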

Additional observations from a re-analysis of the deposited data

How the results depend on the processing

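Both miRNAs stayed higher in pup 2 and past the threshold of the exact binomial test under all 6 alternatives of scaling, count minimum and strand, with log2 ratios from 0.12 (total counts) to 0.20 (upper quartile) for Mir21a and from 0.07 to 0.15 for Mir22. The number of genes called was 129, and from 120 to 136 under the alternatives; of those called, 51.9% were higher in pup 2, against 41.7% with total counts and 64.6% with upper-quartile scaling. The level depends on the denominator. With all reads it was 19414 CPM for Mir21a and 11100 CPM for Mir22, without the highest gene, Mir143, 41347 and 23648 CPM, and with strand ignored 33531 and 19172 CPM. Either pup alone gave 36127 or 33273 CPM for Mir21a, 20312 or 19369 CPM for Mir22, and 0.83 or 0.78 for the log2 difference of the pair. That difference was 0.81 with strand ignored and 0.85 per base of the hairpin. No paired analysis was possible because there is 1 group. With 2 animals of 1 litter, the SD is itself imprecise, and the arms of each hairpin were not resolved.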
